A study of Mus musculus with 99 samples.

Results

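Muscle releases hormones, growth factors and cytokines that act on the muscle itself or on other organs, and these are together called myokines. The transcripts of 10 such factors were followed here, chosen by gene symbol among the 35870 genes of the count table: Mstn, Gdf11, Erfe, Il15, Il6, Igf1, Bdnf, Fgf21, Fndc5 and Metrnl. All 10 were found. RNA was measured, not the protein or its release. The libraries came from gastrocnemius and quadriceps, 2 leg muscles, and from spinal cord of wild-type male C57BL/6 mice that were perfused before the tissue was taken. The groups of each tissue were exercised mice of 18 months, sedentary mice of 18 months and sedentary mice of 10 months, which makes 9 groups in all. The labels do not say what the exercise was. Gastrocnemius and cord each had 13 exercised 18-month, 10 sedentary 18-month and 10 sedentary 10-month libraries, and quadriceps had 12, 9 and 10 in the same order.

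Several of the 10 act through a few shared pathways. Myostatin (Mstn) and GDF11 (Gdf11) are close relatives in the TGF-beta family and bind activin type II receptors, after which SMAD2 and SMAD3 enter the nucleus, and myostatin is a brake on muscle growth. Erythroferrone (Erfe), also called myonectin, is best known as a hormone of red cell precursors that binds BMP ligands and lowers hepcidin. Interleukin-6 and interleukin-15 signal through JAK and STAT proteins, IGF-1 through its receptor kinase, BDNF through TrkB (Ntrk2), and FGF21 through FGF receptors with beta-klotho (Klb). Fndc5 encodes the membrane precursor of irisin, and Metrnl encodes the secreted meteorin-like protein.

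Library totals lay between 29.06 and 62.77 M counts, so that 3 counts in a library, used here as the floor of detection, corresponded to 0.0478 to 0.103 CPM (counts scaled to a common library total). Floors of this kind cover counting error alone. The summed level of 11 myofibre markers was 101000 to 160000 TPM, a level per transcript length, in muscle libraries and 117 to 976 TPM in cord libraries, and the 8 neuron markers together reached 5360 to 7130 TPM in cord. Library 3.1, from a sedentary 10-month mouse by its label, stood apart from its group in both muscles. Among the 10 transcripts it was the lowest of its group for Gdf11, Fndc5, Il15, Igf1 and Metrnl in both muscles and for Erfe and Fgf21 in gastrocnemius, and the highest for Bdnf in both. Some differences of Erfe, Il15, Igf1, Bdnf and Metrnl are given with and without library 3.1. For Gdf11 in quadriceps, the range over fits that left out each library in turn is given. No difference without library 3.1 is given for Fndc5 or for genes outside the 10. How far those results depend on this library is therefore not shown. Gastrocnemius library 2.2 (sedentary, 10 months) and cord libraries 5.2 and 6.1 (sedentary, 18 months) also stood apart. The labels do not say that replicates are separate animals, so p-values measure the spread between these libraries. In bulk tissue, fewer cells of a type and less RNA per cell cannot be told apart.

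In muscle the 10 transcripts ran from abundant to barely detected. Per length of transcript, the most abundant in gastrocnemius of sedentary 10-month mice was Fndc5, with 32.1, 65.3 and 70.8 TPM as the lowest, median and highest library, followed by Mstn with 36.7, 64.3 and 89.9 TPM. The ranges of these 2 overlapped, and both lay above every other member. Gdf11 (median 7.18 TPM), Il15 (4.73 TPM), Metrnl (4.31 TPM) and Igf1 (3.69 TPM) formed a middle group in which each range overlapped the next. Erfe came below them with a median of 0.606 TPM and a range, 0.283 to 0.98 TPM, that overlapped neither Igf1 above it nor Il6 below it. Il6 (0.136 TPM), Bdnf (0.095 TPM) and Fgf21 (0.0925 TPM) were lowest. Quadriceps gave the same order except that Bdnf, with a median of 0.164 TPM, stood above Il6 with 0.126 TPM. The ranges of Erfe and Bdnf overlapped in both muscles.

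In sedentary 10-month cord the order differed. Fndc5 was again highest, with 129, 142 and 155 TPM. It was followed by Gdf11 (median 24.6 TPM), Metrnl (15.7 TPM) and Bdnf (3.67 TPM), and none of these 4 ranges overlapped the next. Il15 (2.06 TPM) and Igf1 (2.04 TPM) had overlapping ranges. Mstn (0.22 TPM), Il6 (0.172 TPM), Fgf21 (0.109 TPM) and Erfe (0.037 TPM) closed the order, each overlapping the next. The myokine label thus covered transcripts that were more abundant per length in cord than in either muscle (Fndc5, Gdf11, Metrnl, Bdnf; with the TMM scaling used for tests Fndc5 was lower in cord and the Gdf11 difference was not called) as well as transcripts that were nearly confined to muscle among these tissues (Mstn, Erfe).

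**Figure D1:**
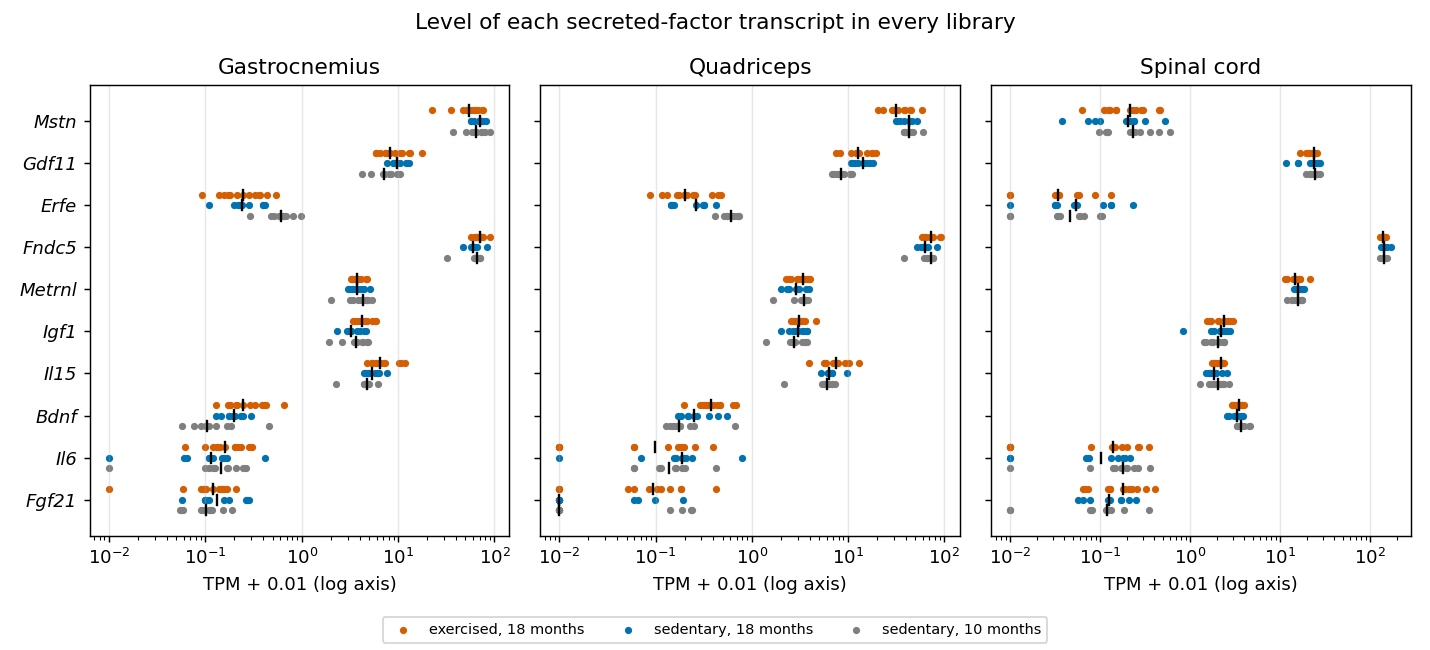
TPM plus 0.01 of each member (log axis) in every library of gastrocnemius, quadriceps and spinal cord; each point is a library, coloured by group, and the black tick is the group median. Mstn lies far lower in cord than in muscle. Erfe has a lower median in cord in each group, but its cord values rest on 0 to 8 counts. Its cord and muscle ranges overlap at 18 months. Bdnf, Gdf11, Metrnl and Fndc5 lie higher in cord on this per-length scale (with TMM scaling Fndc5 is lower in cord and the Gdf11 difference is not called). Il6 and Fgf21 have tissue medians between 0.049 and 0.148 TPM, with libraries at 0 drawn at the lower edge.

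Tests were made on counts with edgeR, 1 tissue at a time, and a gene was called where the Benjamini-Hochberg adjusted p over all genes tested was under 0.05. Of the 10 members, 8 passed the filter on low counts in each muscle and 6 in cord, where Mstn and Erfe did not pass. Il6 and Fgf21 passed it in no tissue. With age, in sedentary mice of 18 against 10 months, 1 of the 8 was called in gastrocnemius, where 0.153% of all genes were (0.113% higher and 0.0399% lower), 2 of the 8 in quadriceps, where 0.352% were (0.243% higher and 0.108% lower), and 0 of the 6 in cord, where 5.35% were (2.82% higher and 2.53% lower). An unadjusted p under 0.05 was reached by 2, 2 and 1 of them in these tissues, where 9.84%, 12.2% and 26.3% of all genes reached it. With exercise at 18 months, none was called in gastrocnemius, quadriceps or cord, where 0.106%, 0.757% and 0% of all genes were called (0.0732% higher and 0.0333% lower in gastrocnemius, 0.595% higher and 0.162% lower in quadriceps). In the exercise comparison 4 of the 8 members in gastrocnemius and 3 of the 8 in quadriceps had an unadjusted p under 0.05, where 13.6% and 11.4% of all genes did, and 0 of the 6 in cord.

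Exercised 18-month mice were also set against sedentary 10-month mice, a comparison that holds the difference of age and of exercise together and shares its libraries with the other 2. It called 3 of the 8 members in gastrocnemius, 2 higher and 1 lower, where 6.73% of all genes were called (3.43% higher and 3.3% lower). In quadriceps it called 3 of the 8, again 2 higher and 1 lower, where 11.1% were called (5.76% higher and 5.38% lower), and in cord 0 of the 6, where 1.51% were (0.981% higher and 0.528% lower). The exercised muscles differed from sedentary ones of 18 months in a few myofibre genes. Of 11 myofibre markers, 2 were called higher with exercise in gastrocnemius and 3 in quadriceps, and none was called lower. Over all genes 0.0732% and 0.595% were called higher. The median of the 11 was -0.0928 in gastrocnemius and 0.0945 in quadriceps, against 0.00352 and -0.00311 over all genes. Their summed level had a median of 130000 TPM in exercised and 139000 TPM in sedentary 18-month gastrocnemius. In quadriceps these medians were 125000 and 129000 TPM. Myh1, a fast myosin heavy chain named here after its value was seen, was higher by 1.06 ± 0.16 (log2, SE; edgeR adjusted p = 0.00203) in exercised gastrocnemius and by 0.84 ± 0.14 (edgeR adjusted p = 0.00122) in exercised quadriceps.

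**Figure D2:**
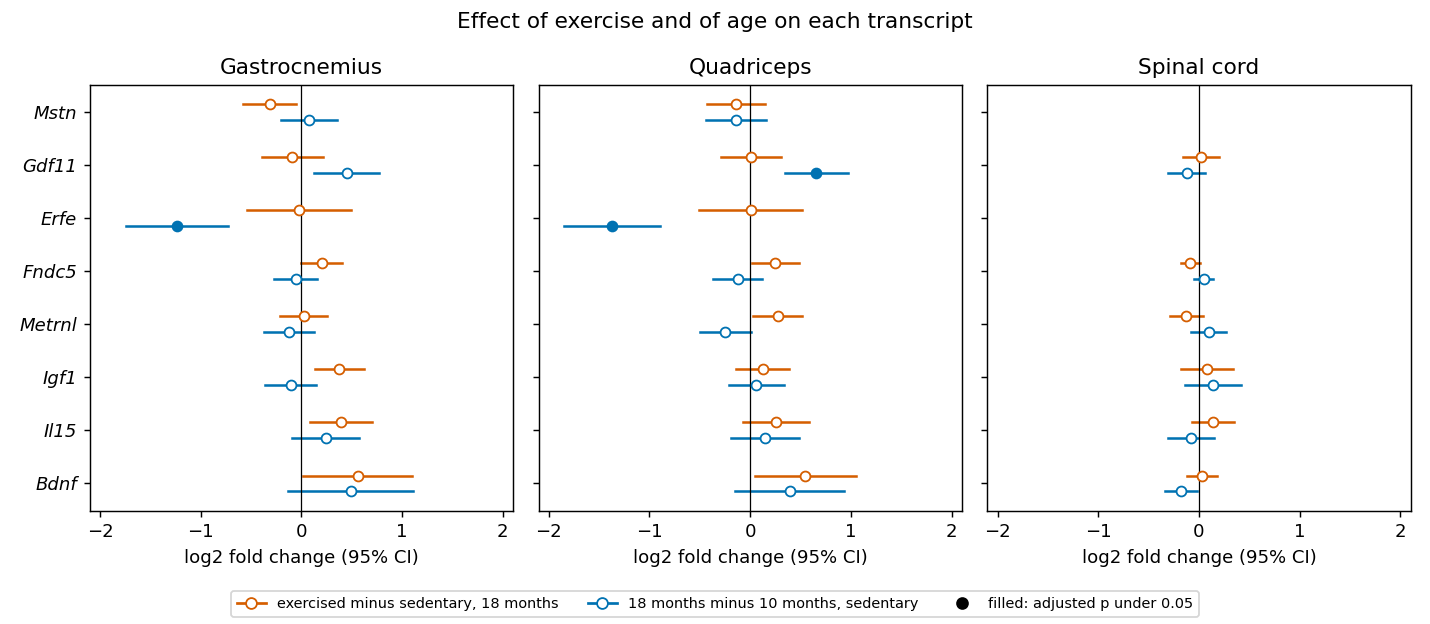
log2 fold change with its 95% confidence interval (CI) for each tested member, exercised minus sedentary at 18 months (orange) and 18 minus 10 months in sedentary mice (blue), in 3 tissues; filled points have an edgeR adjusted p under 0.05. Erfe in both muscles and Gdf11 in quadriceps, all for age, are the filled points.

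Mstn was nearly confined to muscle among these tissues, while Gdf11 was present in all 3 and was higher with age in quadriceps. The promoters of this pair are shown with that of Erfe because these 3 genes hold the largest tissue difference and every call for age among the members. Each is the RefSeq window of 300 bases on GRCm38.p6, 250 before and 50 after the start, read 5′ to 3′ on the strand of the gene. It covers chr1:53061390-53061689 (+) for Mstn, chr10:128891669-128891968 (-) for Gdf11 and chr1:91366180-91366479 (+) for Erfe. Capitals mark the E-box CANNTG, the core bound by myogenic factors such as MyoD, which reads the same on both strands.
Mstn: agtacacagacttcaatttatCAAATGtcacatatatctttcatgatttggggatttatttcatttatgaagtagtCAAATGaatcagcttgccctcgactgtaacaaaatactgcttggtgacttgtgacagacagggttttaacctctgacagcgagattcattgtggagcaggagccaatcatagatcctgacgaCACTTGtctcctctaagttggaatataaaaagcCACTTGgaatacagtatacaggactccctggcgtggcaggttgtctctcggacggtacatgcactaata
Gdf11: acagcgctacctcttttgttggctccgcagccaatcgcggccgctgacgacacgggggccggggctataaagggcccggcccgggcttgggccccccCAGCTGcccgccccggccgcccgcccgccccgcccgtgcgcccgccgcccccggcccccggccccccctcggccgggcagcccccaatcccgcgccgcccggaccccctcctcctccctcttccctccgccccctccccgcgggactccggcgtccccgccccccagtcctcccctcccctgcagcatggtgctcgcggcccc
Erfe: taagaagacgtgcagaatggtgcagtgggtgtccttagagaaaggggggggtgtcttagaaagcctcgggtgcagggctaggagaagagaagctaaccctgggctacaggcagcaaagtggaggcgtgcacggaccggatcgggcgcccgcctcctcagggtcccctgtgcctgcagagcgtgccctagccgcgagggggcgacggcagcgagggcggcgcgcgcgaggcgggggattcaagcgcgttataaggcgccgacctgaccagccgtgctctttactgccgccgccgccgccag
The E-box letters occur 4 times in the window of Mstn, 1 time in that of Gdf11 and 0 times in that of Erfe, while 72.3% of the 32851 promoter windows in the table hold at least 1. The share that holds 4 was not counted. Of the other members with a window, Fgf21 had 3, Il6, Igf1 and Metrnl 1 each, Fndc5 0, and the 7 windows of Bdnf 0 to 2. A link of these letters to the levels was not tested. The Gdf11 window was 80.7% G or C, that of Erfe 66.7% and that of Mstn 41.3%. Neither the STAT element TTCNNNGAA, in 8.3% of all windows, nor the cAMP response element TGACGTCA, in 1.79%, occurs in the 3 windows.

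Mstn (chr1:53061640-53068079, + strand; coordinates of genes are from GENCODE M21, GRCm38) did not pass the test for age or exercise in either muscle. In gastrocnemius it had 27.3, 63.2 and 91.1 CPM (lowest, median, highest) in exercised 18-month mice, 65.6, 84.1 and 96.8 CPM in sedentary 18-month mice and 54.7, 76.1 and 107 CPM in sedentary 10-month mice. The groups overlapped, and 2 of the 13 exercised libraries lay above the sedentary 18-month median. The exercise difference was -0.31 ± 0.13 (log2, SE; 95% CI -0.58 to -0.051; edgeR adjusted p = 0.275). In quadriceps the values were 25.7, 42 and 65.9 CPM in exercised 18-month, 35.8, 53.1 and 63.4 CPM in sedentary 18-month and 46.7, 51 and 76.5 CPM in sedentary 10-month mice. The exercise difference there was -0.14 ± 0.14 (95% CI -0.43 to 0.14; edgeR adjusted p = 0.783), and 4 of 12 exercised libraries lay above the sedentary 18-month median. In cord Mstn had 1 to 23 counts per library and was not tested within the tissue.

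Gdf11 (chr10:128882295-128891718, - strand) was higher with age in quadriceps. Its level there was 6.24, 10.5 and 18.2 CPM in exercised 18-month mice, 7.91, 12 and 15 CPM in sedentary 18-month mice and 5.76, 7.11 and 9.08 CPM in sedentary 10-month mice. All 9 sedentary 18-month libraries lay above the 10-month median, although the ranges overlapped. The ageing difference was 0.66 ± 0.15 (edgeR adjusted p = 0.0459), which is close to the threshold. The call was lost in 16 of the 31 fits that each left out 1 library, listed with the other settings in the closing section, where the difference stayed between 0.60 and 0.72 and the adjusted p reached 0.118. Exercised 18-month quadriceps was higher than sedentary 10-month quadriceps by 0.67 ± 0.15 (edgeR adjusted p = 0.00285), and this was called in each such fit. The exercise difference was 0.0085 ± 0.15 (95% CI -0.29 to 0.30; edgeR adjusted p = 0.992).

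In gastrocnemius Gdf11 had 4.89, 6.32 and 14.2 CPM in exercised 18-month mice, 6.39, 7.55 and 10.205 CPM in sedentary 18-month mice and 3.85, 5.63 and 7.95 CPM in sedentary 10-month mice. All 10 sedentary 18-month libraries lay above the 10-month median, with an ageing difference of 0.45 ± 0.16 (95% CI 0.13 to 0.77) that did not pass (edgeR adjusted p = 0.299). The ageing effects of the 2 muscles differed by -0.22 ± 0.23 (gastrocnemius minus quadriceps; 95% CI -0.67 to 0.24; edgeR adjusted p = 1). Cord held 11.2, 14.7 and 15.5 CPM in exercised 18-month, 8.59, 14.7 and 16.9 CPM in sedentary 18-month and 12.5, 15.5 and 17.4 CPM in sedentary 10-month mice, and the ageing difference of -0.12 ± 0.092 was not called (edgeR adjusted p = 0.393).

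Among the 15 other genes of the myostatin and activin axis, of which 14 were tested in muscle, none was called for age or for exercise in either muscle. Acvr2b, an activin type II receptor that binds both ligands, was higher in exercised 18-month than in sedentary 10-month mice by 0.26 ± 0.082 (edgeR adjusted p = 0.0499) in gastrocnemius and by 0.26 ± 0.073 (edgeR adjusted p = 0.0174) in quadriceps. Smad3, a transducer of the pathway, was lower in the same comparison in gastrocnemius, with 105 ± 23.3 CPM in exercised 18-month and 133 ± 20.1 CPM in sedentary 10-month mice (mean, SD; log2 difference -0.35 ± 0.10; edgeR adjusted p = 0.0324). The median of the tested genes of the axis was -0.037 in gastrocnemius and -0.024 in quadriceps in this comparison, against -0.0081 and -0.013 over all genes. Of the 14, 1 was called higher and 1 lower in gastrocnemius, where 6.73% of all genes were called. In quadriceps 1 was called higher, where 11.1% of all genes were called.

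Erfe (chr1:91366430-91374217, + strand) was the tested member with the largest age difference in both muscles, and it was lower in the older mice. In quadriceps it had 0.128, 0.28 and 0.663 CPM in exercised 18-month mice, 0.181, 0.331 and 0.522 CPM in sedentary 18-month mice and 0.563, 0.848 and 1.14 CPM in sedentary 10-month mice. No sedentary 18-month library reached the lowest 10-month one. The ageing difference was -1.37 ± 0.24 (0.386-fold; edgeR adjusted p = 0.00406), and it was called in each of the 31 fits that left out 1 library. In gastrocnemius Erfe had 0.117, 0.324 and 0.691 CPM in exercised 18-month mice, 0.133, 0.309 and 0.578 CPM in sedentary 18-month mice and 0.352, 0.854 and 1.34 CPM in sedentary 10-month mice. These ranges overlapped through library 3.1, the lowest of the 10-month group with 0.352 CPM, where the other 9 lay between 0.642 and 1.34 CPM. The ageing difference was -1.23 ± 0.25 (0.425-fold; edgeR adjusted p = 0.0249), and -1.33 (edgeR adjusted p = 0.00462) without library 3.1.

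The gastrocnemius call for Erfe was lost when any 1 of 6 libraries was left out (1.1, 1.2 or 1.4 of the 10-month group, 4.3, 6.1 or 8.2 of the sedentary 18-month group), with an adjusted p of at most 0.0615. Exercised 18-month mice were lower than sedentary 10-month mice by -1.25 ± 0.23 (edgeR adjusted p = 0.00155) in gastrocnemius and -1.37 ± 0.22 (edgeR adjusted p = 9.8e-05) in quadriceps, and leaving out any 1 library kept both calls. At 18 months, exercised and sedentary mice differed by -0.02 ± 0.25 (95% CI -0.54 to 0.49) in gastrocnemius and by 0.0044 ± 0.25 (95% CI -0.51 to 0.52) in quadriceps. Neither was called (edgeR adjusted p = 0.985 and 0.998), and the groups overlapped in both muscles. These levels rest on 5 to 56 counts per library in gastrocnemius and 4 to 40 in quadriceps.

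Erfe shares 357 exon bases with Ilkap, a phosphatase gene on the opposite strand (named for this overlap), and whether reads were counted by strand is not given in the sources used here, so reads in those bases cannot be told apart. Ilkap averaged 35.3 ± 3.9 CPM in sedentary 18-month and 37.3 ± 4.67 CPM in sedentary 10-month quadriceps (SD), a difference of -0.079 ± 0.067 that was not called (edgeR adjusted p = 0.661). It was not called in gastrocnemius either (-0.063 ± 0.070; edgeR adjusted p = 0.796). Red cell markers, of which 5 of 6 were tested in each muscle, had 0 calls for age in both, with a median difference of 1.46 in gastrocnemius and 0.60 in quadriceps. Their summed level was 185, 221 and 4570 TPM in sedentary 18-month and 110, 248 and 330 TPM in sedentary 10-month gastrocnemius, and 202, 367 and 3760 TPM in sedentary 18-month and 156, 343 and 1790 TPM in sedentary 10-month quadriceps, with no marker at 0 throughout a group. The part of red cells in the Erfe level was not tested.

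Of 10 BMP ligands, receptors and targets linked to erythroferrone, none was called for age or exercise alone in muscle. In exercised 18-month against sedentary 10-month gastrocnemius, where 3.43% of all genes were higher and 3.3% lower, 3 of the 10 were higher and none lower: Bmp4 by 0.54 ± 0.092 (edgeR adjusted p = 0.000848), Bmp6, the main BMP upstream of hepcidin in the liver, by 0.32 ± 0.095 (edgeR adjusted p = 0.0368) and Bmp5 by 0.53 ± 0.17 (edgeR adjusted p = 0.0467). None was called in quadriceps in that comparison. The list's median was 0.018 in gastrocnemius, against -0.0081 over all genes.

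**Figure D3:**
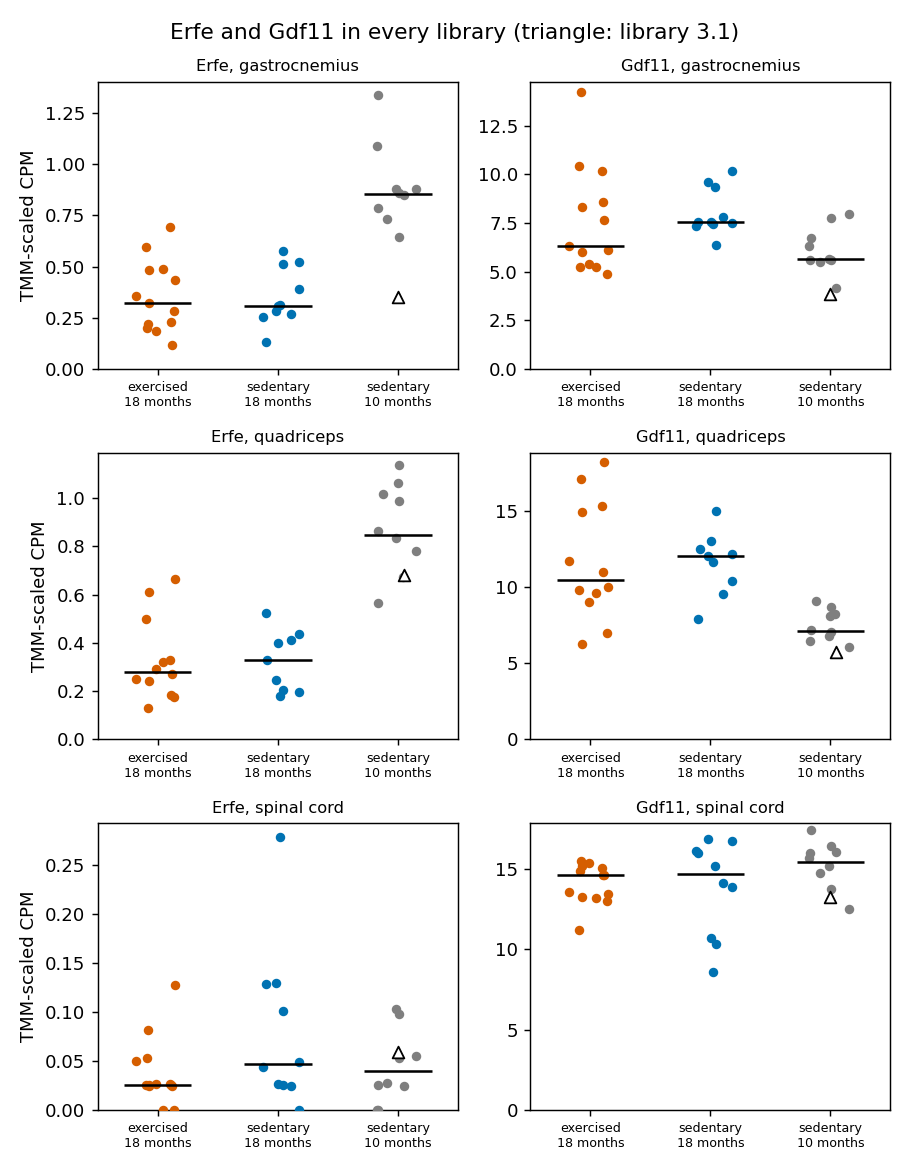
TMM-scaled CPM of Erfe (left) and Gdf11 (right) in each library of 3 tissues, by group; black lines are medians and the triangle is library 3.1. Erfe is lower in both 18-month groups than in the 10-month group in both muscles, Gdf11 is higher in the 18-month quadriceps groups, and Erfe in cord stays at or below 0.278 CPM.

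The interleukins differed widely in level. Il15 (chr8:82331632-82403222, - strand), a cytokine that maintains NK and memory T cells and is abundant as RNA in skeletal muscle, had 5.13, 7.16 and 13.5 CPM in exercised 18-month, 4.79, 6 and 8.25 CPM in sedentary 18-month and 2.28, 5.13 and 6.79 CPM in sedentary 10-month gastrocnemius. The groups overlapped, and 12 of 13 exercised libraries lay above the 10-month median. It was higher in exercised 18-month than in sedentary 10-month mice by 0.64 ± 0.16 (edgeR adjusted p = 0.0126), and by 0.55 (edgeR adjusted p = 0.0187) without library 3.1. Split into its parts, the ageing difference was 0.24 ± 0.16 (edgeR adjusted p = 0.638) and the exercise difference 0.39 ± 0.15 (95% CI 0.082 to 0.70; edgeR adjusted p = 0.248), neither of them called.

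In quadriceps Il15 had 5.33, 8.49 and 15.3 CPM in exercised 18-month, 6.61, 7.09 and 10.38 CPM in sedentary 18-month and 2.2, 7.29 and 8.44 CPM in sedentary 10-month mice, and the ranges overlapped. Its difference between exercised 18-month and sedentary 10-month mice, 0.40 ± 0.16, was not called (edgeR adjusted p = 0.0867), and was 0.30 (edgeR adjusted p = 0.105) without library 3.1. Among the edgeR fits that left out 1 library it passed in 1, without the exercised library that had the lowest Il15 level, 5.33 CPM (adjusted p = 0.0423), and limma voom with quality weights called it with all libraries (adjusted p = 0.0384). The limma voom fit called 17.1% of all genes, against 11.1% in the main fit. In cord the level was lower, with 1.49, 1.95 and 2.11 CPM in exercised 18-month, 1.29, 1.6 and 2.33 CPM in sedentary 18-month and 1.1, 1.76 and 2.42 CPM in sedentary 10-month mice, and no comparison was called.

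Il6 (chr5:30013114-30019981, + strand), an early mediator of inflammation that contracting muscle is known to release, was near the floor in all tissues. It had 98 counts in all over 33 gastrocnemius libraries, 95 over 31 quadriceps libraries and 67 over 33 cord libraries, with 2, 5 and 7 libraries at 0. Group medians lay between 0.0377 and 0.0854 CPM, and no difference was detectable at this depth. The highest Il6 values in both muscles came from libraries with the same number, 9.2 (sedentary, 18 months), with 8 counts in gastrocnemius and 14 in quadriceps.

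Of 14 genes for the receptors and signalling of both cytokines, 1 was called for age in quadriceps, where 0.352% of all genes were called. Jak3, the kinase bound to the common gamma chain used by interleukin-15, averaged 8.95 ± 1.21 CPM in sedentary 18-month and 6.73 ± 0.864 CPM in sedentary 10-month mice (SD), a difference of 0.41 ± 0.091 (edgeR adjusted p = 0.0312). None was called for age in gastrocnemius or for exercise in any tissue. In exercised 18-month against sedentary 10-month mice Jak3 was higher in both muscles, by 0.32 ± 0.085 in gastrocnemius and 0.48 ± 0.085 in quadriceps, while Stat5b, a transcription factor of the same route, was lower, by -0.45 ± 0.11 and -0.41 ± 0.12 (edgeR adjusted p of 0.0236, 0.000402, 0.0132 and 0.0234 in that order). The sedentary 10-month SD of Stat5b was 99.2 CPM around a mean of 297 CPM in gastrocnemius and 97.5 CPM around 249 CPM in quadriceps. Il6ra was called lower there in both muscles, but its sedentary 10-month mean of 4.16 CPM in gastrocnemius had an SD of 4.2 CPM and that of 3.79 CPM in quadriceps an SD of 6.31 CPM. Over all genes, 6.73% were called in gastrocnemius and 11.1% in quadriceps in that comparison. In cord, Il2rg, the common gamma chain itself, was higher with age by 0.55 ± 0.16 (edgeR adjusted p = 0.0423). It averaged 3.26 ± 0.505 CPM in sedentary 18-month and 2.24 ± 1.08 CPM in sedentary 10-month mice (SD). It was the only call among the 14 there, where 5.35% of all genes were called.

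Igf1 (chr10:87858265-87937042, + strand), the growth factor that drives muscle hypertrophy, had 12.7, 17.3 and 20.9 CPM in exercised 18-month, 8.46, 12.4 and 16.6 CPM in sedentary 18-month and 6.55, 13.9 and 17.8 CPM in sedentary 10-month gastrocnemius. All 13 exercised libraries lay above the sedentary 18-month median of 12.4 CPM, though the ranges overlapped. The exercise difference of 0.38 ± 0.12 (95% CI 0.14 to 0.62) had an unadjusted p of 0.00306 and was not called (edgeR adjusted p = 0.146). It was called without library 3.1 of the 10-month group (0.38, edgeR adjusted p = 0.0303), which is in neither of the groups compared but is part of the same fit, and 2.22% of all genes were called there. Fibroblast markers, with 0 of 6 called, had summed levels of 114, 176 and 281 TPM in exercised and 95.4, 139 and 162 TPM in sedentary 18-month gastrocnemius, with none at 0, and their part in the Igf1 level was not tested.

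In quadriceps Igf1 had 9.99, 12.9 and 15.9 CPM in exercised 18-month, 7.28, 12.3 and 13.6 CPM in sedentary 18-month and 4.8, 11.2 and 15 CPM in sedentary 10-month mice, with an exercise difference of 0.12 ± 0.13 (95% CI -0.14 to 0.38; edgeR adjusted p = 0.795). The exercise effects of the 2 muscles differed by 0.25 ± 0.18 (gastrocnemius minus quadriceps), which was not called (edgeR adjusted p = 1). In cord the level was 4.67, 7.08 and 8.74 CPM in exercised 18-month, 2.43, 6.71 and 7.8 CPM in sedentary 18-month and 4.26, 6.11 and 6.97 CPM in sedentary 10-month mice, the value of 2.43 CPM being library 5.2, and no comparison was called. Of 14 other genes of the IGF axis, 13 of them tested, none was called for age or exercise alone. Igfbp3, a carrier of IGF-1 in blood, was higher in exercised 18-month than in sedentary 10-month gastrocnemius by 0.34 ± 0.096 (edgeR adjusted p = 0.0311), and Insr, the insulin receptor, was lower in quadriceps by -0.29 ± 0.097 (71.7 ± 6.32 CPM in exercised 18-month and 87.6 ± 27.4 CPM in sedentary 10-month mice, SD; edgeR adjusted p = 0.0463). Each was the only call among the 13 in its muscle, where 6.73% and 11.1% of all genes were called.

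Bdnf (chr2:109674700-109727007, + strand), a neurotrophin, was scarce in muscle and higher in exercised 18-month than in sedentary 10-month mice. In gastrocnemius it had 0.354, 0.691 and 1.77 CPM in exercised 18-month, 0.347, 0.557 and 0.825 CPM in sedentary 18-month and 0.144, 0.281 and 1.22 CPM in sedentary 10-month mice, the last being library 3.1, where the other 9 reached at most 0.517 CPM. In quadriceps it had 0.5, 1.2 and 2.11 CPM, 0.49, 0.758 and 1.55 CPM, and 0.382, 0.496 and 1.78 CPM in the same groups, and library 3.1 was again the highest of the 10-month group. All 13 exercised gastrocnemius and all 12 exercised quadriceps libraries lay above the 10-month median, while the ranges overlapped.

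Exercised 18-month mice were higher in Bdnf than sedentary 10-month mice by 1.05 ± 0.28 (edgeR adjusted p = 0.0221) in gastrocnemius and by 0.94 ± 0.25 (edgeR adjusted p = 0.0116) in quadriceps. The gastrocnemius call was lost when the fit held only both compared groups (edgeR adjusted p = 0.0641). Without library 3.1 these differences were 1.44 (edgeR adjusted p = 0.00101) and 1.27 (edgeR adjusted p = 0.000158). The ageing difference was 0.49 ± 0.31 (edgeR adjusted p = 0.619) in gastrocnemius and 0.39 ± 0.27 (edgeR adjusted p = 0.57) in quadriceps, and 0.88 (edgeR adjusted p = 0.158) and 0.72 (edgeR adjusted p = 0.14) without that library. The exercise difference was 0.56 ± 0.27 (edgeR adjusted p = 0.348) in gastrocnemius and 0.55 ± 0.25 (edgeR adjusted p = 0.374) in quadriceps. Neither age nor exercise alone was called by this test.

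Bdnf shares 896 exon bases with Gm45346 on the opposite strand, which was not analysed here, so reads from both cannot be told apart. The 8 neuron markers summed to 0.648 to 6.63 TPM over all muscle libraries, with 2 of them tested and none called, and Chat at 0 in every 10-month quadriceps library. In cord Bdnf had 6.62, 8 and 9.36 CPM in exercised 18-month, 5.93, 7.91 and 9.39 CPM in sedentary 18-month and 7.76, 8.71 and 10.9 CPM in sedentary 10-month mice. The ageing difference there, -0.18 ± 0.080, was not called (edgeR adjusted p = 0.15). Of 8 other neurotrophins and receptors, 7 of them tested in each tissue, none was called in any of the 3 comparisons.

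Fgf21 (chr7:45613886-45615490, - strand), a hormone of metabolic stress made mostly by the liver, had 88 counts in all in gastrocnemius, 52 in quadriceps and 81 in cord, with 1, 14 and 2 libraries at 0. Its group medians ran from 0 to 0.0743 CPM, around the floor, and no difference was detectable. Of the 9 tested genes among its receptors and stress inducers, none was called for age or exercise alone. Atf4, the stress factor that induces Fgf21 in muscle, was lower in exercised 18-month than in sedentary 10-month mice by -0.33 ± 0.10 (edgeR adjusted p = 0.047) in gastrocnemius and -0.57 ± 0.13 (edgeR adjusted p = 0.00346) in quadriceps, where the receptors Fgfr3 (-0.57 ± 0.14; edgeR adjusted p = 0.0098) and Fgfr4 (-0.45 ± 0.14; edgeR adjusted p = 0.0339) were also lower. The 10-month libraries spread widely for Atf4, with 141 ± 20.4 CPM in exercised 18-month and 177 ± 56.7 CPM in sedentary 10-month gastrocnemius and 124 ± 11.9 CPM in exercised 18-month and 184 ± 87.8 CPM in sedentary 10-month quadriceps (SD). Between these groups 6.73% of all genes were called in gastrocnemius and 11.1% in quadriceps.

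**Figure D4:**
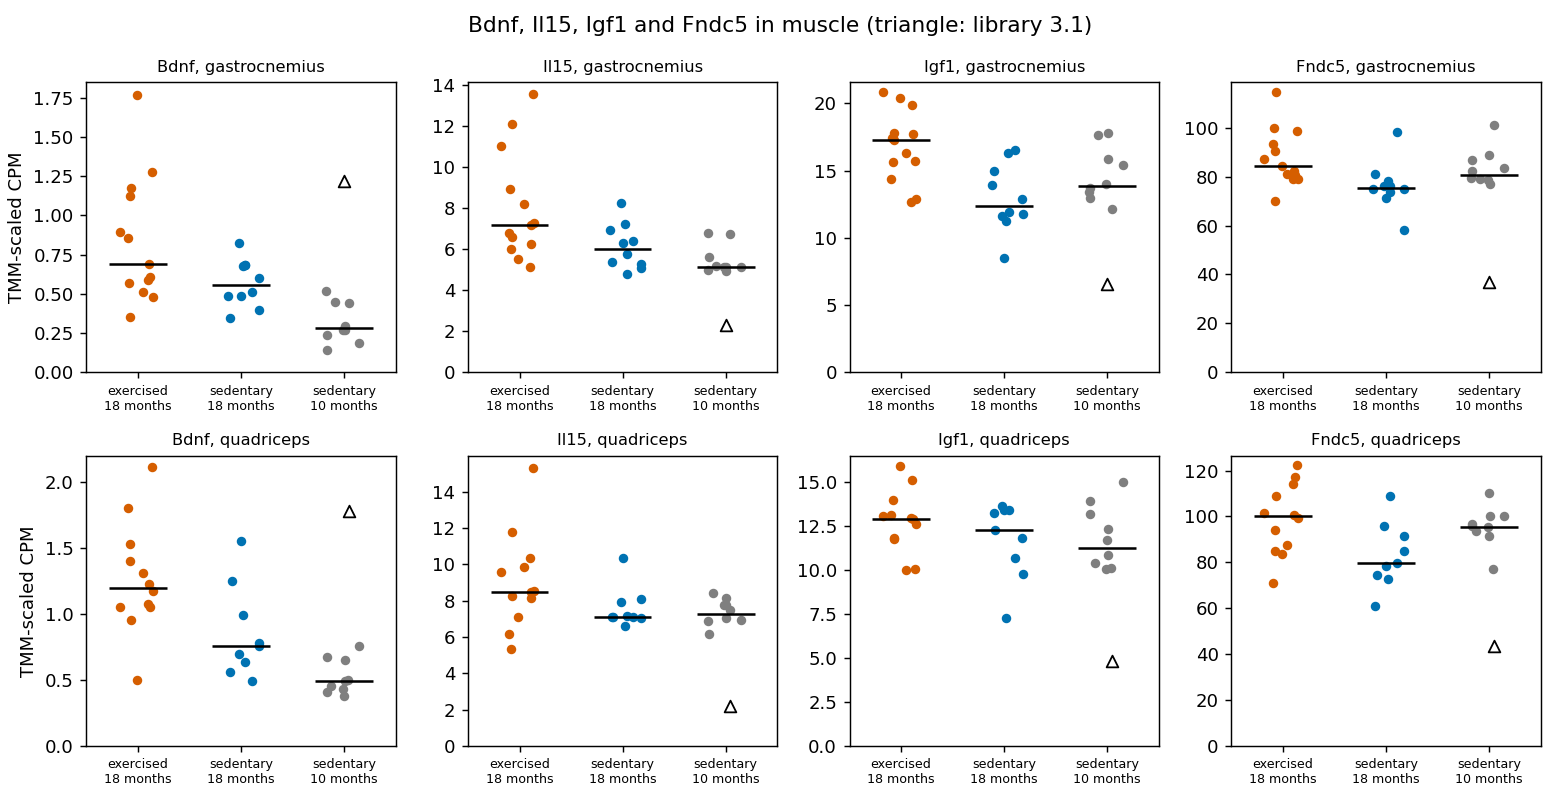
TMM-scaled CPM of Bdnf, Il15, Igf1 and Fndc5 in each library of gastrocnemius (top) and quadriceps (bottom), by group; black lines are medians and the triangle is library 3.1. Library 3.1 is the highest of the sedentary 10-month group for Bdnf and the lowest for the other 3 genes in both muscles.

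Fndc5 (chr4:129136999-129144593, + strand) was abundant in all tissues and was not called for age or exercise. It had 70, 84.2 and 115 CPM in exercised 18-month, 58.2, 75.5 and 98.3 CPM in sedentary 18-month and 36.8, 80.8 and 101 CPM in sedentary 10-month gastrocnemius, and 71, 100 and 122 CPM, 61.1, 79.9 and 109 CPM, and 43.5, 95.5 and 110 CPM in the same groups of quadriceps. Of the exercised libraries, 12 of 13 in gastrocnemius and 11 of 12 in quadriceps lay above the sedentary 18-month median. The exercise difference was 0.20 ± 0.10 (95% CI -0.0023 to 0.41; edgeR adjusted p = 0.373) in gastrocnemius and 0.25 ± 0.12 (95% CI 0.015 to 0.48; edgeR adjusted p = 0.389) in quadriceps. In cord Fndc5 had 123, 136 and 157 CPM in exercised 18-month, 130, 140 and 169 CPM in sedentary 18-month and 126, 142 and 157 CPM in sedentary 10-month mice.

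Metrnl (chr11:121701544-121716306, + strand) had 3.48, 4.01 and 5.25 CPM in exercised 18-month, 3.2, 4.01 and 5.3 CPM in sedentary 18-month and 1.97, 4.78 and 5.81 CPM in sedentary 10-month gastrocnemius. In quadriceps the values were 2.77, 3.9 and 4.58 CPM, 2.58, 3.11 and 4.06 CPM, and 1.64, 3.96 and 4.4 CPM in the same groups. The groups overlapped in both muscles. In quadriceps the exercise difference was 0.27 ± 0.12 (edgeR adjusted p = 0.363) and the ageing difference -0.25 ± 0.13 (edgeR adjusted p = 0.431), neither called. Without library 3.1 the ageing difference was -0.33 (edgeR adjusted p = 0.0894). In cord Metrnl had 9.98, 12.6 and 18.3 CPM in exercised 18-month, 11.9, 13.7 and 18.3 CPM in sedentary 18-month and 10.44, 13.7 and 14.8 CPM in sedentary 10-month mice, and no comparison was called.

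Among 7 partners of irisin and Metrnl, Itgb5, the integrin beta chain reported as part of an irisin receptor, was lower in exercised 18-month than in sedentary 10-month mice in gastrocnemius (100 ± 9.78 against 121 ± 26.6 CPM, SD; log2 difference -0.27 ± 0.081; edgeR adjusted p = 0.0366) and in quadriceps (98 ± 11.2 against 119 ± 21.8 CPM; -0.28 ± 0.086; edgeR adjusted p = 0.0295). In cord it was higher with age, with 99.2 ± 7.92 CPM in sedentary 18-month and 83.6 ± 7.45 CPM in sedentary 10-month mice (0.25 ± 0.052; edgeR adjusted p = 0.00559). This was the only call among the 7 there, where 5.35% of all genes were called. Kit, reported as a receptor of Metrnl, was higher in exercised 18-month than in sedentary 10-month quadriceps by 0.83 ± 0.22 (edgeR adjusted p = 0.0109). None of the 7 was called for age or exercise alone in muscle. Between exercised 18-month and sedentary 10-month mice 6.73% of all genes were called in gastrocnemius and 11.1% in quadriceps.

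A further 25 secreted factors reported from muscle were counted as a list. Of the 21 tested in gastrocnemius and the 22 in quadriceps, none was called for age or for exercise. In exercised 18-month against sedentary 10-month mice 1 was higher in each muscle: Tgfb2 by 0.27 ± 0.063 (edgeR adjusted p = 0.00951) in gastrocnemius, and Ostn, the peptide musclin, by 1.17 ± 0.30 (17.2 ± 13.8 against 7.66 ± 3.43 CPM, SD; edgeR adjusted p = 0.0104) in quadriceps. Over all genes, 3.43% were called higher in gastrocnemius and 5.76% in quadriceps in that comparison. In cord 5 of 22 were higher and 1 lower with age, where 2.82% of all genes were higher and 2.53% lower. The 4 with the smallest p were Postn (0.97 ± 0.18), Timp1 (1.23 ± 0.25), Tgfb1 (0.37 ± 0.093) and Ctsb (0.14 ± 0.035), with edgeR adjusted p of 0.00178, 0.00375, 0.02 and 0.0219 in that order. Macrophage and microglia markers moved with them: 5 of 8 were higher with age in cord, and their sum was 361, 421 and 446 TPM in sedentary 18-month and 256, 273 and 521 TPM in sedentary 10-month cord, none at 0. Their part in these levels was not tested.

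The 2 muscles differed in most members. Over the 3 groups, 7 of the 8 tested members were called between gastrocnemius and quadriceps, where 40.8% of all genes were (20.7% higher and 20.1% lower in gastrocnemius). Mstn was higher in gastrocnemius by 0.51 ± 0.081 (edgeR adjusted p = 5.75e-07), Igf1 by 0.22 ± 0.074 (edgeR adjusted p = 0.0137) and Metrnl by 0.17 ± 0.070 (edgeR adjusted p = 0.0446). Bdnf was lower by -0.70 ± 0.16 (edgeR adjusted p = 0.000279), Gdf11 by -0.55 ± 0.090 (edgeR adjusted p = 9.81e-07), Il15 by -0.37 ± 0.094 (edgeR adjusted p = 0.00113) and Fndc5 by -0.23 ± 0.064 (edgeR adjusted p = 0.00297). Erfe differed by -0.014 ± 0.14 (95% CI -0.30 to 0.27). The ratio of Mstn to Gdf11 in TPM had a median of 6.97 in gastrocnemius (2.19 to 13.9 over 33 libraries) and 3.46 in quadriceps (1.67 to 8.45 over 31 libraries). Among cell type markers, 5 of 8 macrophage markers were higher in gastrocnemius and none lower, with sums of 41.9, 62.3 and 87.1 TPM in gastrocnemius and 35.3, 50.1 and 71.5 TPM in quadriceps at 10 months and no marker at 0. Of 6 fibroblast markers, 0 were called higher in gastrocnemius and 2 lower, with a median of -0.219. Their sums at 10 months were 52.6, 177 and 260 TPM in gastrocnemius and 37.7, 174 and 186 TPM in quadriceps. Of 6 adipocyte markers 5 were lower in gastrocnemius, with sums of 96.3, 139 and 246 TPM in gastrocnemius and 143, 190 and 359 TPM in quadriceps at 10 months and none at 0. The part of these cells in the members' levels was not tested. No member was called as different between the muscles in its ageing or its exercise effect, and neither was any gene (0% called for each difference).

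Cord and muscle differed in nearly all genes, and scaling changed the direction of Fndc5 and the call of Gdf11. At 10 months 7 of the 8 tested members, Mstn and Erfe among them, were called between cord and the mean of both muscles, where 92.1% of all genes were (53.9% higher and 38.2% lower in cord). Il15 was lower in cord by -2.88 ± 0.15 and Igf1 by -2.24 ± 0.13, while Bdnf was higher by 2.96 ± 0.17 and Metrnl by 0.56 ± 0.093 (edgeR adjusted p from 1.25e-33 for Il15 to 4.23e-08 for Metrnl). Mstn, at 3 to 23 counts per library in 10-month cord, was lower by -9.23 ± 0.23. Erfe was also called lower, but with 0 to 4 counts per library and a median of 0.0398 CPM in 10-month cord it lay below the floor, so no size is given. Mstn and Erfe had not passed the filter in cord alone and entered this fit through their muscle levels. Their lower level in cord was thus given by that filter, and their calls are no test of it. Fndc5 was lower in cord by -0.40 ± 0.086 (edgeR adjusted p = 1.21e-05) with TMM factors, but higher by 0.74 (edgeR adjusted p = 1.88e-15) when counts were scaled by library totals alone. Gdf11 differed by 0.058 ± 0.12 (edgeR adjusted p = 0.65) with TMM factors and was higher in cord by 1.19 (edgeR adjusted p = 3.38e-17) by totals. The median over all genes was 0.40 with TMM factors and 1.54 by totals, and the TPM values above follow the totals. The directions of Mstn, Il15, Igf1, Bdnf and Metrnl were the same under both.

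In the comparison of ageing effects between cord and muscle, 2 of the 8 members, Gdf11 and Erfe, were called, where 2.61% of all genes were (1.08% upward and 1.54% downward). For Erfe this is no measure of an ageing effect in cord, present or absent, because it had not passed the filter there and was not tested. Erfe in cord was 0, 0.0463 and 0.278 CPM in sedentary 18-month and 0, 0.0398 and 0.103 CPM in sedentary 10-month mice, at 0 to 8 counts per library. The highest value, 0.278 CPM or 8 counts, was library 6.1. The summed red cell markers of sedentary 18-month cord reached at most 43800 TPM, against a group median of 2720 TPM. Which library held that highest sum was not recorded, and the part of red cells in the Erfe value of library 6.1 was not tested. The Erfe call was lost without the libraries that stood apart, which were 3.1 and 2.2 of gastrocnemius, 3.1 of quadriceps, and 5.2 and 6.1 of cord (edgeR adjusted p = 0.223). For Gdf11 the difference, cord minus the mean of both muscles, was -0.69 ± 0.17 (edgeR adjusted p = 0.0168), and -0.59 (edgeR adjusted p = 0.061) without them, library 6.1 being the lowest of its group for Gdf11 with 8.59 CPM. Bdnf, at -0.64 ± 0.25 (edgeR adjusted p = 0.127) with all libraries, was called without them (-1.02, edgeR adjusted p = 0.00769), where 1.27% of all genes were called. No exercise effect of a member was called as different between cord and muscle, where 0.887% of all genes were. An unadjusted p under 0.05 was reached by 3 of the 8, where 16% of all genes reached it.

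The genes whose level followed each member most closely from library to library were listed by Pearson's r of log2 CPM, taken as the deviation from the group mean over the 64 muscle libraries, leaving out genes whose log2 CPM averaged below 1. The libraries share depth and any quality difference. Values are given for the first gene of each member only, with and without library 3.1. By rank (Spearman's rho) these first pairs ran from 0.386 for Igf1 with Mfap4 to 0.815 for Fndc5 with Rcan2. Il15 was most like Ckmt2, the mitochondrial creatine kinase of muscle (r = 0.898, and 0.835 without library 3.1), followed by Adk and Dlat. Fndc5 was most like Rcan2 (0.864, and 0.751 without it), followed by Tmem132a and Grb14. Metrnl was most like Anxa2 (0.847, and 0.705), followed by Retnla and Tuba1b, and Igf1 was most like Mfap4 (0.767, and 0.538), followed by Dap and Col1a2. Mstn was most like Nek9 (0.789, and 0.788), followed by Ttll7 and Galnt1, and Gdf11 was most like Tmem185a (0.68, and 0.7), followed by Tmem64 and Mvb12b. Bdnf, with Pus1, Hibch and Gabarapl1 (0.667, and 0.523 for Pus1), and Erfe, with Tgfb1i1, Rasa4 and Fam19a3 (0.566, and 0.536 for Tgfb1i1), had the lowest values, and they are also the tested members with the fewest counts in muscle.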

How the data were processed

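Bulk RNA was extracted with Trizol and made into poly(A) libraries with the TruSeq RNA v2 kit, per the labels' protocols. The submitters' processing notes name STAR 2.5.2b and the build GRCm38.p5. The deposited table holds raw counts per gene for 97 of 99 labelled samples, and 2 quadriceps samples were not analysed here. The authors also deposited TPM values, which could be recomputed from the counts and gene lengths to within 5e-04. Whether counting used strand is not given in the sources used here.

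Counts were tested with edgeR 4.0.16 (quasi-likelihood F test, TMM factors, filterByExpr with a minimum count of 10 and total of 15), with the 3 groups of a tissue in 1 fit. Muscles, and all tissues, were fitted together for differences between tissues. P-values are two-sided and were adjusted over all genes tested (15027 in gastrocnemius, 14790 in quadriceps, 18956 in cord, 15433 in both muscles, 19735 in all tissues). CPM values use TMM factors within a tissue. Alternatives used DESeq2 1.42.0, limma 3.58.1, other scaling and filters, and fits that left out libraries. Scripts ran in R 4.3.3 and Python 3.11.15 and were tested on simulated data. Promoter windows are RefSeq's, and 9 of the 10 members had one. Named genes are the members, the 3 genes most like each tested member, and genes of the lists that were called, at most 4 for each list and comparison. The members and lists were chosen with earlier results of these data known. The labels do not say what the replicate numbers mark, so the main fits did not pair libraries by number, and the block stands with the alternatives.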

Additional observations from a re-analysis of the deposited data

Results flagged for a closer look

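Within groups of up to 10 libraries, a library whose gap to its nearest neighbour took an unusually large share of the group's range (Dixon's 95% criterion) was looked for in 60 combinations of member and group. It was found in 17, of which 9 were library 3.1 of the sedentary 10-month group. For separate groups of normally distributed values the criterion would flag about 1 in 20. These combinations share libraries and some rest on a few counts, so that rate does not apply here and the 17 are a description.

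In gastrocnemius, library 3.1 had 36.8 CPM of Fndc5 (the other 9 libraries lay between 77.1 and 101 CPM), 2.28 CPM of Il15 (others 4.92 to 6.79), 6.55 CPM of Igf1 (others 12.1 to 17.8) and 1.22 CPM of Bdnf (others 0.144 to 0.517). In quadriceps, it had 43.5 CPM of Fndc5 (others 76.9 to 110), 2.2 CPM of Il15 (others 6.17 to 8.44), 4.8 CPM of Igf1 (others 10 to 15), 1.64 CPM of Metrnl (others 3.59 to 4.4) and 1.78 CPM of Bdnf (others 0.382 to 0.755).

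Of the sedentary 18-month group, cord library 6.1 had 0.278 CPM of Erfe, cord library 5.2 had 2.43 CPM of Igf1 (others 5.09 to 7.8) and quadriceps library 6.1 had 10.38 CPM of Il15 (others 6.61 to 8.11). Library 9.2 of the same group had the highest Il6 in both muscles, with 0.21 CPM in gastrocnemius (others at most 0.0767) and 0.406 CPM in quadriceps (others at most 0.111). Single libraries near the detection floor stood apart for Il6 in quadriceps (2.2 of the 10-month group, 0.215 CPM) and for Fgf21 in cord (1.4 of the 10-month group, 0.155 CPM) and quadriceps (7.4 of the sedentary 18-month group, 0.103 CPM).

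The test of the difference in ageing effect between cord and the mean of both muscles called Gdf11 (-0.694, edgeR adjusted p = 0.0168) and Erfe (1.97, edgeR adjusted p = 0.0314). Without the libraries that stood apart neither was called (Gdf11 -0.594, edgeR adjusted p = 0.061; Erfe 1.51, edgeR adjusted p = 0.223). Erfe in cord had 0 to 8 counts per library and entered the fit through muscle, so its value is no measure of an ageing effect in cord.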

How the results depend on the processing

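The counts of members called changed under these settings. With limma voom and quality weights the count was 2 for ageing in gastrocnemius (Bdnf added, 1.04, adjusted p = 0.0128), 1 for exercise in gastrocnemius (Igf1, 0.37, adjusted p = 0.0235), 4 for ageing in quadriceps (Bdnf 0.748, adjusted p = 0.0205, and Metrnl -0.307, adjusted p = 0.0272, added), 5 for exercised 18-month against sedentary 10-month quadriceps (Mstn -0.363, adjusted p = 0.0277, and Il15 0.297, adjusted p = 0.0384, added) and 1 for the same comparison in cord (Igf1 0.298, adjusted p = 0.0279). In these comparisons limma voom called 3.2%, 7.1%, 5.63%, 17.1% and 14% of all genes, in that order. The main fits called 0.153%, 0.106%, 0.352%, 11.1% and 1.51%, so the added calls came with many more calls over all genes. Without the libraries that stood apart the count was 1 for exercise in gastrocnemius (Igf1 0.383, edgeR adjusted p = 0.0198), where 4.52% of all genes were called. It was 1 for the difference of the ageing effect between cord and muscle (Bdnf, where Erfe and Gdf11 were no longer called), where 1.27% were. Scaling by library totals alone, and leaving out libraries in fits between tissues, were chosen after seeing the data. By totals Fndc5 reversed to 0.742 between cord and muscle. With edgeR on only both groups, Bdnf in exercised 18-month against sedentary 10-month gastrocnemius had an adjusted p of 0.0641, and without a filter Metrnl between the muscles had 0.0681. DESeq2 gave Erfe no adjusted p in both differences between cord and muscle. The cause of these changes was not tested.

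With each library left out in turn, the count lay between 0 and 1 for ageing and for exercise in gastrocnemius, 1 and 2 for ageing in quadriceps, and 3 and 4 for exercised 18-month against sedentary 10-month quadriceps. It was 3 in each such fit of that comparison in gastrocnemius, and 0 in each for exercise in quadriceps and for the 3 comparisons in cord. Of these fits, the share of all genes called is given only for exercise in gastrocnemius without library 3.1, with Igf1 above. Igf1 with exercise was called only without library 3.1. Gdf11 with age in quadriceps lost its call without any 1 of sedentary 18-month libraries 4.3, 6.1, 6.2, 6.4, 8.2 and 9.2, 10-month libraries 1.2, 1.3, 1.4, 2.1, 2.2, 2.3, 3.2 and 3.3, and exercised libraries 5.1 and 7.3.

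Libraries of gastrocnemius and quadriceps with the same number deviated together (r over 0.1) for 28 of 31 numbers. The median r was 0.272, against -0.00119 between different numbers. For 23 of the 31 the gastrocnemius library was most like the quadriceps library of its own number. Toward cord this held for 5 of 33 numbers of gastrocnemius and 3 of 31 of quadriceps. The numbers thus paired most muscle libraries but few with cord, and the main fits between the muscles did not use this pairing. With the replicate block, the members called between tissues were the same except that Bdnf was added for the difference of the ageing effect between cord and muscle (-0.766, edgeR adjusted p = 0.0241), where 9.28% of all genes were called. Il6 and Fgf21, and Erfe in cord, were limited by depth at a few counts per library.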
